A study of Danio rerio with 6 samples.

Results

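H3K27ac peaks of the zebrafish melanoma line zcrest that lay far from any H3K27ac peak of a primary zebrafish melanoma were examined. They were chosen by the measured width of the peaks and the measured distance to tumor peaks, as cell line peaks under 1000 bases wide whose nearest tumor peak on the same chromosome was 20 kb or more away, measured from edge to edge. Of the 50338 peaks in the cell line list, 4155 (8.25%) met this rule and are called far peaks. They were set against the other 22084 cell line peaks that overlapped no tumor peak, called the other unshared peaks. The remaining 24099 cell line peaks overlapped a tumor peak by at least 1 base. Tumor distance and width chose the far peaks, so both are given only as a description. Grouping, fold enrichment and nearness to sox10 were not used by the rule. However, the rule limits how closely cell line peaks can surround a far peak. Position enters it through the distance to tumor peaks, so far peaks can lie only in sequence 20 kb or more from one. The density of sox10 peaks also differed with that distance.

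The series comprised 6 libraries made by chromatin immunoprecipitation and sequencing (ChIP-seq), with 1 library per group, and 3 of them were inputs not used here as separate data. The zcrest libraries for H3K27ac and sox10 came from cells passaged more than 20 times, whose founder fish was p53/BRAF/Na with crestin:EGFP and MiniCoopR alone. The tumor library for H3K27ac came from 1 dissected, dissociated bulk melanoma of a p53/BRAF/Na fish that had received MiniCoopR;mitf:EGFP. Both sources thus shared the p53/BRAF/Na background and MiniCoopR, a vector that carries an mitfa minigene, and differed in fish, in culture and in cell mixture. The tumor list held 59760 peaks and the sox10 list 4202. With 1 library per group there was no replicate check and no test between conditions. Read depth is unknown from peak lists, so a missing tumor peak means that none was called there. Zv9 sequence and gene annotation were not used here, so regions are given by position and no marker gene was examined.

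Acetylation of histone H3 at lysine 27 marks active promoters and enhancers, and enhancers can lie far from the gene they act on. Enhancers differ more between cell states than promoters do. The protein sox10 binds DNA through an HMG domain. It is required in neural crest cells and in the pigment cells that derive from them, and in melanoma it is known for keeping up the neural crest and melanocyte programmes.

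Far peaks were found on all 25 chromosomes and scattered widely. Their distance from the nearest tumor peak ranged from 20005 to 794873 bases, with a median of 43939 bases and quartiles of 28679 and 79231 bases. At least 50 kb separated 1805 of them (43.4%) from a tumor peak, at least 100 kb separated 763 (18.4%) and at least 500 kb separated 18. The other unshared peaks lay next to tumor peaks for the most part: 53.9% were within 1 kb of one, and their median distance was 814 bases.

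Just inside the distance limit were a peak on chromosome 8 from 54232365 to 54232591 (20005 bases, 8.73-fold), one on chromosome 4 from 27683997 to 27684295 (20026 bases, 9.29-fold) and one on chromosome 21 from 22773777 to 22774222 (20027 bases, 4.11-fold). Just outside it were peaks on chromosome 6 from 15108520 to 15108831 (19994 bases, 4.21-fold), chromosome 23 from 20199333 to 20199792 (19992 bases, 2.72-fold) and chromosome 4 from 9833792 to 9833930 (19991 bases, 2.80-fold). Fold here is the fold enrichment over the peak caller's own background, as deposited for each peak. The distances on either side of the limit ran on without a break.

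Sequence at least 20 kb from a tumor peak made up 633 Mb, or 46.7% of the 1356 Mb spanned by the lists. It held 6.56 far peaks per Mb, against 31.2 other unshared peaks per Mb in the 705 Mb closer to tumor peaks. All cell line peaks without tumor overlap, of any width, numbered 129 per Mb within 1 kb of a tumor peak and 8.84 per Mb at 10 to 20 kb. Beyond the limit the density was 7.91 per Mb at 20 to 50 kb, 5.80 at 50 to 100 kb, 5.23 at 100 to 200 kb and 4.98 at 200 kb or more. The steepest part of this decline was therefore over before 20 kb, and beyond the limit the density went on falling more slowly.

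Between neighbouring tumor peaks there were 8317 gaps of 40 kb or more, the shortest that can hold a far peak, and 1807 of them (21.7%) held at least 1. Those gaps had a median length of 139 kb, against 68.5 kb for the gaps without one. A far peak was present in 5.57% of gaps of 40 to 60 kb, 17.8% of those of 60 to 100 kb, 30.9% of those of 100 to 200 kb, 50.5% of those of 200 to 400 kb and 70.8% of longer ones. Longer gaps were more often occupied, but per Mb of sequence beyond the limit they held fewer far peaks: 9.61 in gaps of 40 to 60 kb and 5.45 in gaps over 400 kb. Outside the first and last tumor peaks of the chromosomes lay 13 far peaks.

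Chromosomes differed in how densely far peaks lay in the sequence open to them. Chromosome 10 had 10.9 far peaks per Mb of sequence beyond the limit and chromosome 16 had 9.34, the highest values. Chromosome 12 had 3.46 and chromosome 13 had 4.44, the lowest values. In numbers, chromosome 16 led with 266 far peaks (13.7% of its cell line peaks) and chromosome 10 followed with 240 (11.8%). Chromosome 12 had the fewest, 89 (6.25%), and chromosome 13 had 101 (4.78%). The order of density was not that of the number of sox10 peaks, since chromosome 12, the lowest here, held 425, the most of any chromosome. However, the densest, chromosomes 10 and 16, held 338 and 379 sox10 peaks, also among the higher numbers. The next densest, chromosomes 19 (8.97 per Mb), 18 (8.70) and 21 (8.52), held 129, 42 and 40. Whether density and the number of sox10 peaks were related was not tested.

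**Figure D1:**
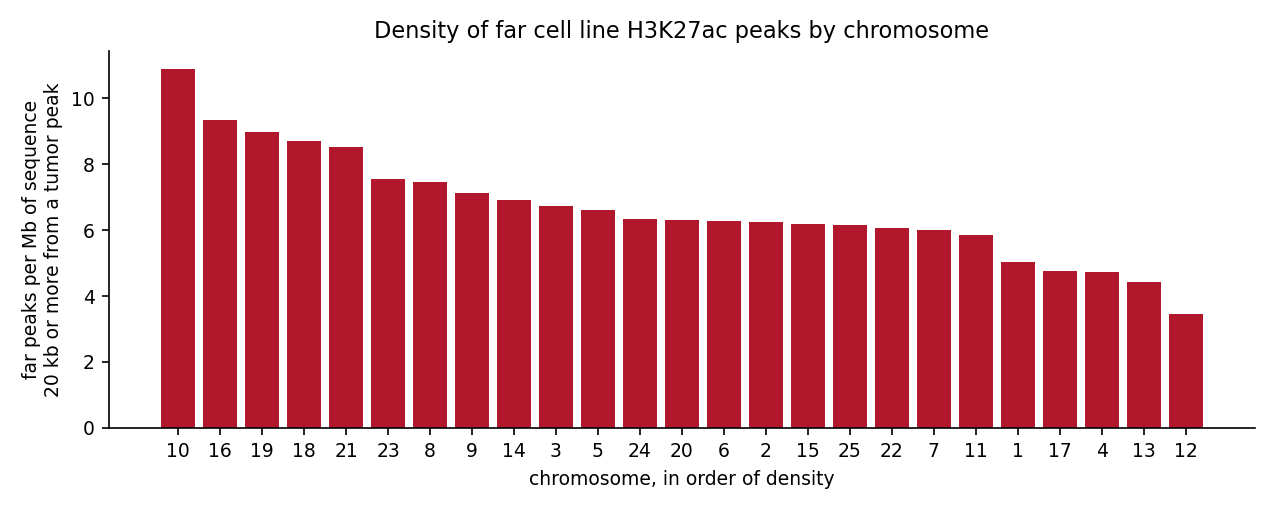
Far peaks per Mb of sequence 20 kb or more from a tumor peak (vertical axis) for each of the 25 chromosomes, in order of density (horizontal axis); each bar is 1 chromosome in 1 library. The bars run from 10.9 on chromosome 10 to 3.46 on chromosome 12.

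Chromosome 4 stood apart in another way. Its part from 25 Mb onward, which is known in zebrafish as rich in repeats and largely heterochromatic, held 152 far peaks, and its first 25 Mb held 23. Far peaks made up 45.8% of the 332 cell line peaks of the distal part, against 2.21% in the first part. However, 81.4% of the distal part lay beyond the limit, against 27.6% of the first part. Per Mb of sequence beyond the limit the distal part held 5.04 far peaks and the first part 3.34, both under the genome-wide 6.56. Median fold enrichment was 4.53 in the distal part and 5.50 in the first part. The large share thus went together with a large part of the sequence beyond the limit, where far peaks were not dense. Its cause was not tested, and unmappable sequence was not modelled.

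The 5 far peaks most distant from a tumor peak came from 2 chromosomes. On chromosome 4 they lay from 33587385 to 33587606 (795 kb away, 4.05-fold), from 33641336 to 33641476 (741 kb, 6.15-fold) and from 33126293 to 33126878 (636 kb, 4.89-fold). On chromosome 24 they lay from 16763107 to 16763696 (691 kb, 6.85-fold) and from 16844048 to 16844203 (610 kb, 5.50-fold). Each was alone in its group, with 53.7 to 80.4 kb to the next cell line peak, and the nearest sox10 peak was 85.9 to 769 kb away.

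In strength, far peaks resembled the other unshared peaks. Their median fold enrichment was 4.89 (quartiles 3.91 and 6.47, interval of the median 4.85 to 4.98), against 4.90 (3.95 and 6.47, 4.89 to 4.95) for the other unshared peaks. The median −log10 q was 7.65, against 7.46, and these intervals overlapped as well (7.26 to 7.92 and 7.31 to 7.57). A −log10 q of 10 or more was reached by 36.2% of far peaks and 35.2% of the other unshared peaks, with 50.7% over the whole cell line list. The other unshared peaks had no width limit here. The 21761 of them under 1000 bases had a median fold of 4.89 and a median −log10 q of 7.31 (7.23 to 7.44). Of these, 34.4% reached a −log10 q of 10 or more. The whole list was higher because peaks that overlapped a tumor peak had a median fold of 5.96 and reached that q in 67.5% of cases. All intervals given are 95% binomial ones for counting error alone, and peaks that are neighbours on a chromosome are not independent of each other.

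Distance did not order strength within the far peaks. Among cell line peaks of any width, median fold was 4.89 at 20 to 50 kb from a tumor peak, 5.01 at 50 to 100 kb, 4.85 at 100 to 200 kb and 4.84 at 200 kb or more. On 12 of the 25 chromosomes the median was higher for far peaks than for the other unshared peaks.

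Widths differed slightly. Far peaks had a median width of 239 bases (quartiles 174 and 356, interval of the median 233 to 245), and the 21761 other unshared peaks under 1000 bases had 229 bases (169 and 340, 226 to 231). Under 200 bases wide were 37.2% of far peaks and 39.6% of those others, and at least 500 bases wide were 10.6% and 10.1%. The smallest width in the list, 139 bases, was shared by 237 far peaks. Median fold was higher in wider far peaks, 4.44 under 200 bases and 7.33 at 500 bases or more, and the other unshared peaks of these widths had 4.43 and 7.44. Together the far peaks covered 1.21 Mb, 6.13% of the width of the cell line list.

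A strong minority was present. A fold enrichment over 10 was found for 290 far peaks (6.98%). It was found for 6.91% of the other unshared peaks and 11.3% of the whole cell line list, both of any width. These 290 occurred on all 25 chromosomes and had a median width of 432 bases. Of them, 116 were alone, 94 were in groups of 2 and 80 were in larger groups. A sox10 peak overlapped 1 of the 290 (0.345%, against 0.459% over the whole list) and lay within 5 kb of 2 (0.690%, against 1.13%). The whole list includes peaks of every fold. At a fold of 7.44 to 30.7, sox10 overlapped 0.279% of far peaks and 0.133% of the other unshared peaks. Within 5 kb these shares were 0.697% and 1.04%.

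The 10 far peaks with the highest fold lay on 10 chromosomes. The first was on chromosome 21 from 29952990 to 29953309, with a fold of 29.4 and a −log10 q of 103. The nearest tumor peak was 35.7 kb away and the nearest sox10 peak 1233 kb away. It was close to the highest value of the whole list, 30.7. The second was on chromosome 6 from 40093240 to 40093559 (24.2-fold), only 20.9 kb from a tumor peak and in a group of 4. The third was on chromosome 18 from 18447348 to 18448122 (24.1-fold), 77.9 kb from a tumor peak, with a sox10 peak 5.89 kb away. That was the shortest distance to sox10 among the 10.

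The next was on chromosome 23 from 4833378 to 4834157 (21.2-fold), 65.6 kb from a tumor peak and 53.6 kb from sox10. Peaks followed on chromosome 9 from 13123375 to 13123825 (20.3-fold) and on chromosome 16 from 28045445 to 28046095 (20.1-fold), which were 2085 and 3244 kb from sox10. A peak on chromosome 7 from 71830500 to 71830993 (19.2-fold) belonged to a group of 17 and was the most remote from tumor peaks, at 238 kb. The last 3 reached 18.4-fold on chromosome 25 from 25868002 to 25868419, 18.4-fold on chromosome 3 from 45866809 to 45867402 and 17.6-fold on chromosome 2 from 47020929 to 47021612. Of the 10, 7 had another cell line peak within 2 kb, and none overlapped a sox10 peak.

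Far peaks were more often alone than the other unshared peaks. No other cell line peak lay within 12.5 kb of 1513 far peaks (36.4%), against 7.64% of the other unshared peaks. The share was 14.1% for peaks that overlapped a tumor peak and 13.1% over the whole cell line list. The median gap to the next cell line peak was 972 bases for far peaks and 287 bases for the other unshared peaks. Part of this follows from the rule, because cell line peaks that overlap a tumor peak are kept away from far peaks: 8 far peaks had one within 20 kb and 0 had one within 12.5 kb. When gaps were measured only among peaks of the same class, the medians were 1116 bases for far peaks and 1195 bases for the other unshared peaks. Another peak of the same class lay within 1 kb of 49.3% of far peaks and 47.3% of the other unshared peaks.

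Far peaks less than 12.5 kb apart were joined into 2479 groups. Of these, 1585 held 1 far peak, 553 held 2, 288 held 3 to 5, 38 held 6 to 9 and 15 held 10 or more. Groups of 3 or more held 1464 far peaks (35.2%, interval 33.8% to 36.7%), against 59.4% of the other unshared peaks grouped among themselves and 71.2% of the whole cell line list grouped in the same way. These shares depend on density, which was lower for far peaks. Median fold was similar over group sizes, 4.85 for lone far peaks and 5.24 in groups of 6 to 9, and was lower in groups of 10 or more (4.30). Within groups of 3 or more, the strongest peak had a median of 1.36 times the group's median fold and 1.96 times its lowest.

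**Figure D2:**
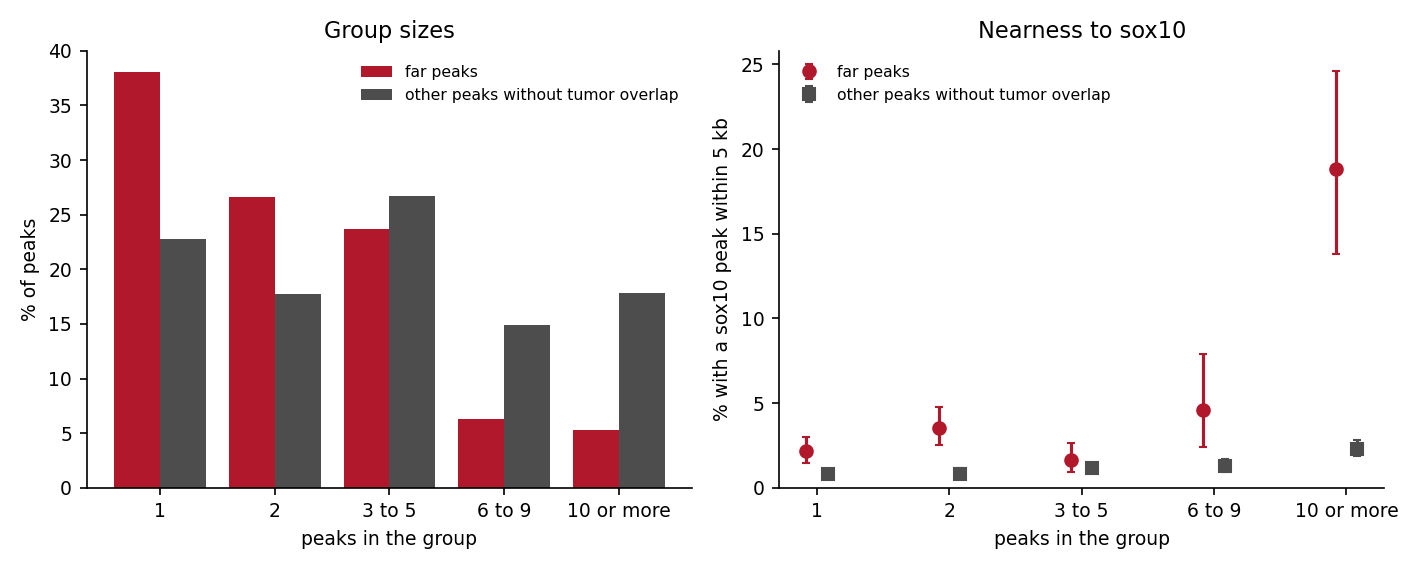
Left, percent of far peaks (red) and of other unshared peaks (grey) by the number of peaks in their group (horizontal axis); right, percent of each with a sox10 peak within 5 kb, with exact 95% intervals for counting error. Far peaks were more often alone (38.1% against 22.8%), and 18.8% of far peaks in groups of 10 or more were near sox10.

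The 5 groups with the most far peaks differed in density and in sox10. The fullest, on chromosome 14 from 18253890 to 18294193, held 29 far peaks in 40.3 kb with folds of 2.94 to 8.60, 20.9 kb from a tumor peak and 786 kb from sox10. The second, on chromosome 10 from 2486786 to 2506934, held 20 far peaks in 20.1 kb, and peaks filled 42.3% of it. All 20 overlapped sox10 peaks, of which 43 lay in the group, and their median fold of 2.56 was the lowest among the 15 groups of 10 or more.

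The third group, on chromosome 11 from 15460491 to 15484879, held 18 far peaks (median fold 4.13) and lay 159 kb from a tumor peak. The fourth, on chromosome 7 from 71827066 to 71885416, held 17 far peaks over 58.4 kb, which filled 8.75% of it, with folds of 2.61 to 19.2. The fifth, on chromosome 16 from 41751873 to 41764519, held 15 far peaks in 12.6 kb and was as densely filled as the chromosome 10 group, at 42.6%. A group on chromosome 18 from 10508164 to 10530357 also held 15, and the chromosome 16 group was placed before it by its higher summed fold (87.4 against 85.9). The groups on chromosomes 11, 7 and 16 were 185 to 1283 kb from sox10. Of the 5, only the chromosome 10 group contained sox10 peaks.

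On a larger scale, far peaks occurred in 1056 of 1369 windows of 1 Mb, with a median of 3 in an occupied window. The 10 fullest windows held 274 far peaks (6.59%), against 4.35% of the other unshared peaks in their own 10 fullest. These sets differ in size (4155 and 22084 peaks), on which such shares depend. The fullest window, on chromosome 18 from 10 to 11 Mb, held 35. In 34 of the gaps between tumor peaks there were 10 or more far peaks. Chosen after their values were seen, the 3 fullest gaps held 33 far peaks on chromosome 14 from 17884776 to 18315094, 32 on chromosome 18 from 10288774 to 10593837 and 28 on chromosome 7 from 71138175 to 72068656.

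Far peaks overlapped a sox10 peak more often than the other unshared peaks did. A sox10 peak overlapped 113 far peaks (2.72%, interval 2.25% to 3.26%), against 102 of the other unshared peaks (0.462%, 0.377% to 0.560%), a ratio of 5.89. Over the whole cell line list the share was 0.459%. Far peaks thus supplied 48.9% of the 231 cell line peaks that overlapped sox10, while making up 8.25% of the list. The overlap share varied with distance from a tumor peak. Among cell line peaks without tumor overlap, of any width, it was 0.135% within 1 kb and 0.382% at 1 to 5 kb. It was 1.55% at 5 to 10 kb and 1.46% at 10 to 20 kb (interval 0.970% to 2.10%). Beyond the limit it was 2.69% at 20 to 50 kb (2.08% to 3.43%) and 3.23% at 50 to 100 kb. Farther out it was 1.73% at 100 to 200 kb and 2.99% at 200 kb or more. The rise thus began before the limit. A sox10 peak within 5 kb was found for 142 far peaks (3.42%, 2.89% to 4.02%) and 274 other unshared peaks (1.24%, 1.10% to 1.40%), with 1.13% over the list. By distance, again at any width, that share was 0.774% within 1 kb of a tumor peak. It was 2.41% at 5 to 10 kb, 2.18% at 10 to 20 kb and 3.32% at 20 to 50 kb.

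The difference was largest at short range and concerned a small minority of far peaks. Within 20 kb of sox10 lay 5.01% of far peaks and 3.06% of the other unshared peaks, with 2.77% over the list. Within 100 kb the shares were 12.0% and 10.1%, with 9.44% over the list. The median distance to sox10 was 845 kb for far peaks and 1021 kb for the other unshared peaks. The share within 5 kb was higher for far peaks on 20 of the 25 chromosomes and lower on 5. The share that overlapped was higher on 21 and lower on 3. Many of these directions rest on few far peaks: chromosomes 4, 11 and 24 each had 1 on sox10, against 21 on chromosome 10. On chromosomes 13, 17 and 25 no far peak had a sox10 peak within 5 kb.

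Sox10 peaks, blocks included, were themselves more frequent far from tumor peaks. Sequence beyond the 20 kb limit held 3074 sox10 peaks (73.3%), or 4.86 per Mb, against 1.57 per Mb in closer sequence outside tumor peaks. By distance, sox10 peaks numbered 0.908 per Mb within 1 kb of a tumor peak, 2.11 at 10 to 20 kb, 3.85 at 20 to 50 kb and 10.1 at 200 kb or more. Of the 3074, all but 390 lay in dense blocks, defined as at least 5 sox10 peaks with less than 5 kb between neighbours. Outside blocks there were 0.454 sox10 peaks per Mb within 1 kb of a tumor peak, 0.565 at 20 to 50 kb, 0.498 at 100 to 200 kb and 0.991 at 200 kb or more, and 53.9% of them lay beyond the limit. Looked at from the sox10 side, 4.46% of the sox10 peaks beyond the limit lay on a cell line H3K27ac peak (interval 3.75% to 5.25%), against 11.7% of the 1104 closer ones that overlapped no tumor peak (9.85% to 13.7%). Outside blocks these shares were 8.97% beyond the limit (6.33% to 12.3%) and 17.6% closer (13.6% to 22.3%). Beyond the limit, far peaks numbered 6.56 per Mb, against 31.2 per Mb for the other unshared peaks in closer sequence. Shares from either side depend on these densities. Whether sox10 and H3K27ac peaks coincided more often than their densities imply was not tested.

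**Figure D3:**
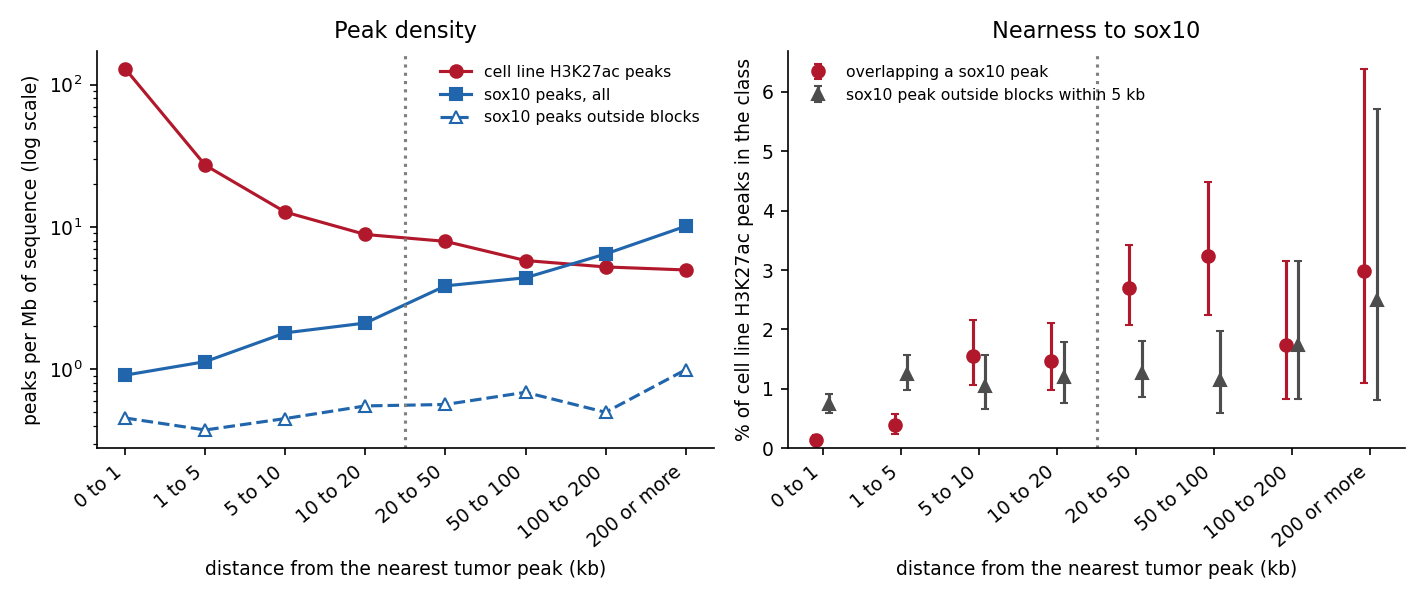
Left, cell line H3K27ac peaks without tumor overlap and sox10 peaks per Mb of sequence (log scale) by distance from the nearest tumor peak; right, percent of those cell line peaks, of any width, that overlapped a sox10 peak or had a sox10 peak outside blocks within 5 kb, with exact 95% intervals for counting error. The dotted line marks the 20 kb limit: H3K27ac density runs from 129 to 4.98 per Mb while the density of all sox10 peaks runs from 0.908 to 10.1 per Mb, and that outside blocks from 0.454 to 0.991.

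Most far peaks on sox10 likewise lay on blocks, but blocks hold most sox10 peaks. Of the 3074 sox10 peaks beyond the limit, all but 390 were in blocks. Sox10 peaks outside blocks lay on H3K27ac more often there, at 8.97% against 4.46% for all 3074. Of the 113 far peaks on sox10, 84 overlapped peaks in blocks and 29 overlapped peaks outside them. The 84 comprised 43 on blocks of 5 to 19 sox10 peaks, 31 on blocks of 20 to 49 and 10 on blocks of 50 or more. They touched 26 of the 122 blocks in the sox10 list. When blocks were left out, 56 far peaks had a sox10 peak within 5 kb (1.35%, 1.02% to 1.75%), against 210 of the other unshared peaks (0.951%, 0.827% to 1.09%), with 0.809% over the list. These intervals overlapped, and the share was higher for far peaks on 11 chromosomes and lower on 14. Direct overlap outside blocks was found for 0.698% of far peaks (0.468% to 1.00%) and 0.204% of the other unshared peaks (0.149% to 0.273%), with 0.179% over the list.

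A handful of groups carried much of the overlap. The 113 far peaks on sox10 belonged to 52 groups, and 5 of these groups held 52 of them (46.0%). Besides the chromosome 10 group with 20, these were, chosen after their values were seen, chromosome 14 from 29797928 to 29825475 (10 of its 11 far peaks, with 57 sox10 peaks in the group), chromosome 5 from 69765837 to 69782973 (10 of 10, with 26), chromosome 3 from 43063206 to 43067641 (7 of 7, with 12) and chromosome 8 from 32014467 to 32030024 (5 of 6, with 15). Without these 5 groups, 2.17% of the remaining far peaks had a sox10 peak within 5 kb, 1.75 times the share of the other unshared peaks. No groups were taken out of the other unshared peaks for this ratio. With each group counted once, 66 of 2479 groups of far peaks (2.66%) were near sox10, against 116 of 9341 groups of other unshared peaks (1.24%).

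By group size, the share near sox10, blocks included, was highest in the largest groups. A sox10 peak within 5 kb was found for 2.15% of lone far peaks, 3.53% in groups of 2, 1.62% in groups of 3 to 5 and 4.60% in groups of 6 to 9. In groups of 10 or more it was 18.8% (interval 13.8% to 24.6%), or 41 of 218 far peaks, and all 40 that overlapped sox10 came from the groups on chromosomes 10, 14 and 5 named above. The other 12 groups of 10 or more held no far peak on sox10. Among lone peaks the share was 2.15% for far peaks (1.49% to 2.98%) and 0.793% for the other unshared peaks (0.567% to 1.08%). For the other unshared peaks in groups of 10 or more it was 2.29% (1.85% to 2.81%). When blocks were left out, the order was different. A sox10 peak then lay within 5 kb of 1.51% of lone far peaks, 2.08% in groups of 2 and 0.914% in groups of 3 to 5. In groups of 6 to 9 and of 10 or more it was 0%.

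Far peaks on sox10, blocks included, had low fold enrichment. Their median fold was 3.17 (quartiles 2.49 and 4.24, interval of the median 2.87 to 3.52), against 4.92 (3.93 and 6.60, 4.88 to 5.05) for the 4042 far peaks without sox10. The median −log10 q was 5.42 on sox10 and 7.83 without. The gap in fold was also present within ranges of q-value. At a −log10 q of 5 to 10 the median folds were 3.42 (45 peaks) and 4.85 (1463 peaks), and at 10 to 20 they were 4.89 (13 peaks) and 6.75 (966 peaks). The other unshared peaks showed a similar gap, with medians of 3.48 on sox10 and 4.90 without. Of the 113 far peaks on sox10, 84 lay on blocks and 5 groups held 52. Median fold in these groups was 2.56 on chromosome 10, 3.57 on 14, 3.18 on 5, 6.15 on 3 and 3.11 on 8. The 56 far peaks with a sox10 peak outside blocks within 5 kb, overlapping or not, had a median of 4.18 (3.41 to 4.75). The medians were not recomputed by group.

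**Figure D4:**
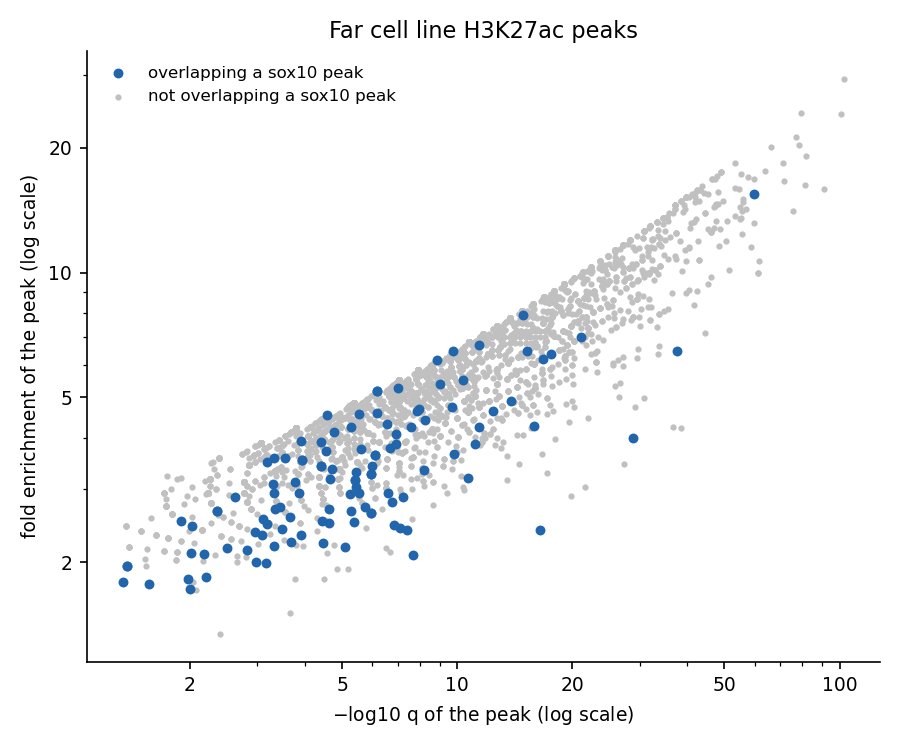
Fold enrichment (vertical, log scale) against −log10 q (horizontal, log scale) of the 4155 far peaks, each point 1 peak; 113 overlapped a sox10 peak (blue) and 4042 did not (light grey). Blue points, sox10 blocks included, often lie low in the cloud, and the median folds were 3.17 with sox10 and 4.92 without.

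With blocks included, sox10 was most frequent on far peaks of low fold. The cell line list was split into 4 classes of equal size by fold. By direct overlap, 6.83% of far peaks in the lowest class (fold 1.31 to 4.11) lay on sox10 (interval 5.47% to 8.39%), against 1.12% of the other unshared peaks (0.869% to 1.41%). In the next class (up to 5.31) 1.49% of far peaks overlapped (0.885% to 2.34%), against 0.287% of the others (0.173% to 0.447%). In the one above (up to 7.44) it was 0.986% of far peaks (10 of 1014, 0.474% to 1.81%), against 0.163% (9 of 5517, 0.0746% to 0.309%). In the highest class (7.44 to 30.7) it was 0.279% (2 of 717, 0.0338% to 1.00%), against 0.133% (5 of 3752, 0.0433% to 0.311%). The overlap share was thus higher for far peaks in all 4 classes, with intervals apart in the lower 3 and overlapping in the highest. These intervals cover counting error alone, and neighbouring peaks are not independent: 5 groups held 52 of the 113 far peaks on sox10. The classes were not recomputed by group.

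With a sox10 peak within 5 kb as the measure, the upper classes differed less. In the lowest class 7.73% of far peaks had one (interval 6.29% to 9.38%), against 2.05% of the other unshared peaks (1.71% to 2.44%). In the next class the shares were 2.40% for far peaks and 0.935% for the others, and in the one above they were 1.38% and 0.834%. In the highest class they were 0.697% (5 of 717 far peaks, 0.227% to 1.62%) and 1.04% (0.740% to 1.42%). The intervals were apart in the lower 2 classes and overlapped in the upper 2, and they again cover counting error alone. Of the 113 far peaks that overlapped sox10, 83 were in the lowest class. Both measures include blocks. When blocks were left out, 26 far peaks in the lowest class (2.14%) had a sox10 peak within 5 kb, against 1.24% of the others. In the next class the shares were 1.41% and 0.799%, and in the one above they were 0.888% and 0.779%. In the highest class they were 0.558% and 0.986%. Direct overlap outside blocks was not split by class.

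**Figure D5:**
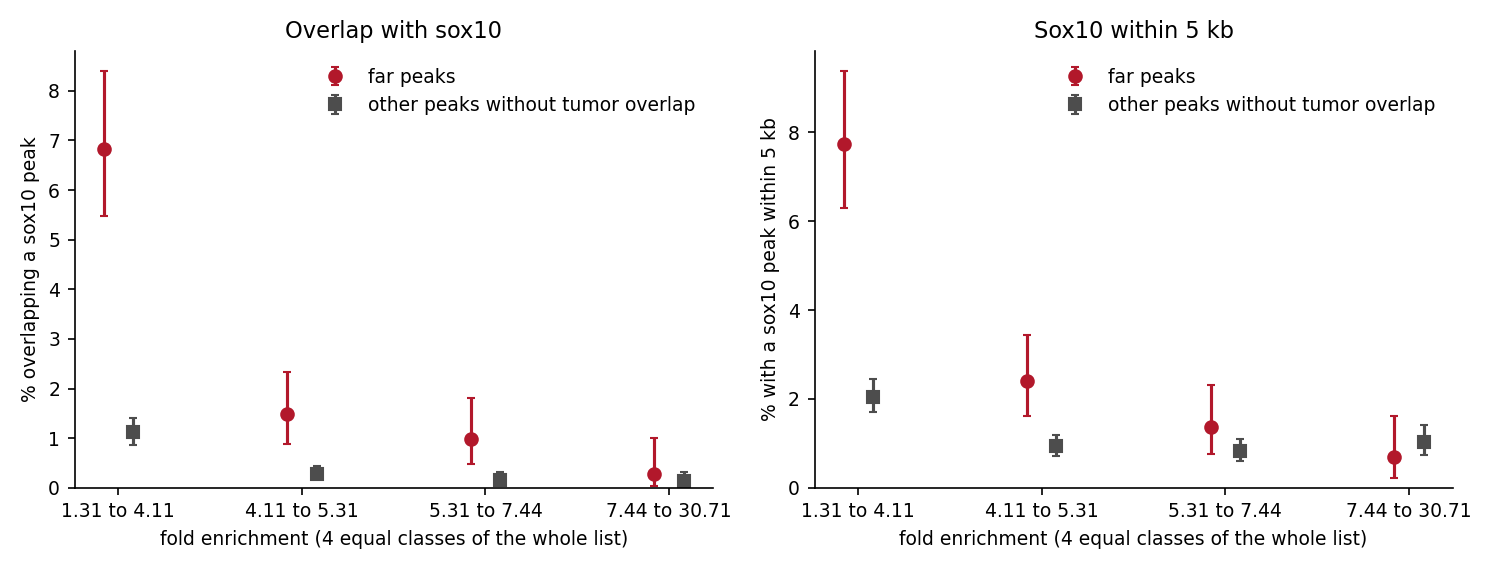
Percent of far peaks (red) and other unshared peaks (grey) that overlapped a sox10 peak (left) or had one within 5 kb (right), sox10 blocks included, in 4 equal classes of fold enrichment of the whole cell line list (horizontal axis), with exact 95% intervals for counting error. In the highest class far peaks stand at 0.279% against 0.133% by overlap and at 0.697% against 1.04% within 5 kb, with overlapping intervals in both.

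Among far peaks of different width the share on sox10 was similar. The share that overlapped sox10 was 2.97% of far peaks under 200 bases, 2.47% at 200 to 300 bases, 2.71% at 300 to 500 bases and 2.50% at 500 bases or more. In the other unshared peaks it was 0.302%, 0.572%, 0.559% and 0.363% over the same widths. The share was higher for far peaks in each of the 4 width classes.

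The 113 far peaks overlapped 134 sox10 peaks, and 93 of them overlapped exactly 1. The nearest sox10 summit was within 100 bases of the H3K27ac summit in 90 cases (79.6%), with a median of 26 bases. For the 102 other unshared peaks on sox10 the share was 77.5% and the median also 26 bases. Short distances follow in part from the choice of overlapping peaks, since the median width of these far peaks was 217 bases. The 134 sox10 peaks had a median fold of 8.07 and a median −log10 q of 12.9, against 4.77 and 8.59 for the other sox10 peaks. The 134 were thus stronger than usual within the sox10 list, while the H3K27ac peaks above them were weaker than usual within theirs. Of the 113 far peaks, 84 lay on sox10 blocks and 5 groups held 52. Sox10 strength was not measured separately on the other unshared peaks or outside blocks. It is therefore not shown to be particular to far peaks.

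The strongest far peak on sox10 was on chromosome 20 from 13926967 to 13927623. Its fold was 15.5 and its −log10 q 59.7, it lay 59.1 kb from a tumor peak, and the next cell line peak was 116 kb away. It was the only far peak on sox10 with a fold over 10. The next 2, on chromosome 3 from 43066836 to 43067343 (7.89-fold) and from 43065741 to 43066161 (7.01-fold), belonged to the chromosome 3 group of 7. The fourth was on chromosome 1 from 14470851 to 14471277 (6.69-fold) and the fifth on chromosome 19 from 24299617 to 24300035 (6.47-fold), each in a group of 2. These 5 were 56.5 to 91.7 kb from a tumor peak.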

How the data were processed

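ChIP-seq peak lists of 3 libraries were used: H3K27ac and sox10 in zcrest, and H3K27ac in the tumor. Alignment to Zv9 used Bowtie, and MACS2 version 2.0 called the peaks, per the submitters' processing notes. The calling control, its thresholds and the version of Bowtie are not stated there. The authors deposited, per peak, a fold enrichment (a ratio), a −log10 p-value, a −log10 q-value, a summit position and a score. The deposited score was 10 times the −log10 q, truncated, in every peak. The lists end at q-values of 0.0462 to 0.0497.

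Distances, groups, densities and shares were computed with pandas 2.3.3, numpy 2.4.6 and scipy 1.17.1 under Python 3.11.15. Coordinates count from 1 on Zv9, each chromosome was taken to end at its last peak in any list, and 6 mitochondrial sox10 peaks were left out of densities. Gaps in the assembly and unmappable sequence were not modelled. Fold and q were compared only within 1 list. Intervals are exact (Clopper-Pearson) or, for medians, from binomial order statistics, at 95%. The distance and grouping functions were tested on simulated data. The members, comparisons and alternatives were chosen with earlier results of these data known. Regions named are the 10 far peaks of highest fold, the 5 largest groups, the 5 most remote far peaks, the 5 strongest on sox10 and 3 on each side of the distance limit, besides those said to be chosen later.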

Additional observations from a re-analysis of the deposited data

How the results depend on the processing

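Of 74 alternative values over 6 results, 6 (restriction to chromosomes 1 to 25) left the lists as they were. Of the other 68, 49 stayed inside the 95% interval of the reported value or, for the number of far peaks, within 1.5 times. A limit of 50 kb left 1805 far peaks. The share of far peaks with sox10 within 5 kb (3.42%) was 2.69% for cell line peaks with a −log10 q of 5 or more, 2.72% for overlap, 5.01% within 20 kb, 1.35% without sox10 blocks, 2.66% with each group counted once and 2.17% without the 5 groups with the most far peaks on sox10, an alternative chosen after seeing the data. Relative to the other unshared peaks these shares were 2.20, 5.89, 1.64, 1.42, 2.14 and 1.75 times as high, against 2.75 as reported. For the last of these ratios, groups were taken out of the far peaks only. The ratio was 4.55 within 1 kb and 4.84 with sox10 peaks of a −log10 q of 5 or more, where the share of the other unshared peaks was 0.661% and 0.602%. The share in groups of 3 or more (35.2%) was 27.3% for cell line peaks with a −log10 q of 5 or more, 38.2% with tumor peaks of that q, 28.9% when joined within 5 kb and 39.1% within 20 kb. Median fold (4.89) was 5.62 for cell line peaks with a −log10 q of 5 or more, a filter that removes weak peaks. No paired analysis was possible because each group has 1 library. Depth is unknown, so peaks absent from a list may have been missed.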

Other observations

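Besides the far peaks, 53 cell line peaks of 1000 bases or more, up to 2305 bases wide, lay 20 kb or more from a tumor peak. Their median fold was 8.56, 34 of them were less than 12.5 kb from a far peak, and 1 overlapped a sox10 peak.

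The tumor peaks nearest to far peaks had lower values within the tumor list than those next to other unshared peaks. Both sets were chosen through distances between cell line and tumor peaks, which the rule used, so they are given only as a description. The 2070 tumor peaks nearest to a far peak had a median fold of 5.36 and a median width of 225 bases. The 13007 tumor peaks nearest only to other unshared peaks had 5.99 and 254 bases, and the whole tumor list had 5.56 and 239 bases. A cell line peak overlapped 45.9% of the set next to far peaks (interval 43.7% to 48.1%), 62.8% of the set next to other unshared peaks (62.0% to 63.6%) and 39.8% of the whole tumor list.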
